A study of Homo sapiens with 4 samples.

Results

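The genes described here are 10 feedback inhibitors and ETS factors whose expression lies downstream of ERK. The inhibitors are the phosphatases DUSP4, DUSP5 and DUSP6, the Sprouty genes SPRY1, SPRY2 and SPRY4, and the Sprouty-related genes SPRED1 and SPRED2. The transcription factors are ETV4 and ETV5. All 10 were chosen by gene symbol and were measured, each by 1 transcript cluster, among 22393 genes with a cluster of a single symbol. RNA was taken from cells labelled as the myeloma lines OPM2 and KMS11, with 1 whole-transcript array for each of 4 conditions. These were OPM2 with no agent, OPM2 treated with KPT-9274 for 48 h, KMS11 with no agent, and KMS11 treated with KPT-9274 for 48 h. KPT-9274 is a small molecule reported to act on both PAK4, a p21-activated kinase, and NAMPT, which recycles nicotinamide into NAD, and the study's title asks about PAK4 as a target in myeloma. The labels give neither dose, vehicle, a time for the controls nor separate cultures, so p-values over the 2 lines measure only the spread between these 4 arrays.

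Growth factor and cytokine receptors activate RAS, which recruits RAF and starts the MEK and ERK kinase cascade. Active ERK switches on genes that restrain the same cascade. DUSP4 and DUSP5 are nuclear phosphatases and DUSP6 is a cytoplasmic phosphatase that remove phosphate from ERK, Sprouty proteins dampen receptor signalling to RAS, and SPRED proteins bring neurofibromin (NF1) to the membrane to switch RAS off. ETV4 and ETV5 are ETS transcription factors of the PEA3 group whose genes are held down by the repressor Capicua (CIC) until ERK relieves it. Transcripts of these genes are widely read as a measure of ERK output. In myeloma with FGFR3 overexpression, FGFR3 is a receptor that feeds this cascade.

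Start-site sequence was at hand for 6 of the 10 genes, with 10 start sites in all, from RefSeq on build GRCh38.p14. The windows hold 250 bases before and 50 after an annotated start. Shown are 3 genes that read lower after treatment on both lines' arrays, and SPRY2, which did not; for genes with several starts the most upstream is given. They lie at chr12:89352452-89352751 (minus strand, DUSP6), chr15:38252586-38252885 (plus strand, SPRED1), chr2:65432550-65432849 (minus strand, SPRED2) and chr13:80341077-80341376 (minus strand, SPRY2). Capitals mark the octamers TGAATGAA, TGAATGGA, TCAATGAA and TCAATGGA, which CIC is known to bind, and the hexamer AGGAAG, an ETS-type core, each searched on both strands.
DUSP6: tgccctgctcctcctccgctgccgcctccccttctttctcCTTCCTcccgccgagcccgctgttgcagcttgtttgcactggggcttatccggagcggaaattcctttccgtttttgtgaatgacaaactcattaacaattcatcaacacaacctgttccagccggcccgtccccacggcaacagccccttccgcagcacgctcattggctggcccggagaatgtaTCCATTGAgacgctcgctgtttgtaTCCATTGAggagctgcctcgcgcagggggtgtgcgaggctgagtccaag
SPRED1: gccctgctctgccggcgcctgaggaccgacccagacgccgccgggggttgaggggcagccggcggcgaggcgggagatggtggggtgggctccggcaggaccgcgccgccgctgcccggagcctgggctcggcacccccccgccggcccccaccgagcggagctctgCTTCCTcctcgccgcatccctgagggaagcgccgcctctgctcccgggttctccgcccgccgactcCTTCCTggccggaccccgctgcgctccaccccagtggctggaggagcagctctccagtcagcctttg
SPRED2: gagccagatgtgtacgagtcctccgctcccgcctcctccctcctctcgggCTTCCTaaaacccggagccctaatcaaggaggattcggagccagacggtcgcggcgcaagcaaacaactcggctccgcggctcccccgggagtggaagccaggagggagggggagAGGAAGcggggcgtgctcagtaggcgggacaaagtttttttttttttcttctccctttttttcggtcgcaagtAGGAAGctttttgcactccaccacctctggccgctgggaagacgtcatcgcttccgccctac
SPRY2: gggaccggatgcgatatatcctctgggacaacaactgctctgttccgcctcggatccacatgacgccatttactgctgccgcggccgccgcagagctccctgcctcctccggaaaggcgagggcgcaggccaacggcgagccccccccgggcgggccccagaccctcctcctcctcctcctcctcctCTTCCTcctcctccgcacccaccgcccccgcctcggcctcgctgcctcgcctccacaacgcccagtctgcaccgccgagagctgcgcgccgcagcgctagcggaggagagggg

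The DUSP6 window holds 2 copies of a CIC-type octamer, at bases 227 to 234 and 252 to 259 from its 5′ end, both on the opposite strand. Such an octamer occurs in 3.77% of the 35116 windows of this length, and in none of the other 9 windows of these genes. The ETS hexamer occurs in 33.6% of all windows, and here 1 time in the DUSP6 window, 2 times in that of SPRED1, 3 times in that of SPRED2 and 1 time in that of SPRY2. SPRY1, which also read lower, has 2 windows, not shown here: the upstream one holds none of these motifs and the other holds the ETS hexamer 1 time. No match overlapped another. The AP-1 heptamers TGAGTCA and TGACTCA (4.95% of windows) were found 1 time, in the second SPRED2 window. A match describes letters and is no measure of binding, and SPRY2 carries the ETS hexamer as well as the genes that read lower.

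The arrays with the KMS11 label did not carry the full profile of that line. MAF is driven to high levels by a translocation in KMS11, yet its log2 signal was 5.68 on the control array and 5.86 on the treated one, both under background, against 12.11 and 10.87 in OPM2. MAF was 1 of 4 listed myeloma translocation genes, and the others, FGFR3, NSD2 and CCND2, were above background on all 4 arrays. They read 7.99, 10.84 and 12.23 on the control array with the KMS11 label, and 13.55, 12.39 and 14.69 on that of OPM2. Of 10 plasma cell markers 4 lay above background on the control array with the KMS11 label, against 8 on the OPM2 control array. On the former, 6 of 7 measured erythroid and megakaryocytic markers and 6 of 8 myeloid and basophil markers did. These arrays are called KMS11-labelled, and OPM2 values are given on their own beside each result over both lines. T cell markers (0 of 4) and stromal markers (0 of 4 measured) were above background on no array.

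Background was taken as the 95th percentile of 392 olfactory receptor genes, which these cells are not known to use. On the log2 signal scale it was 6.81 for untreated and 7.65 for treated OPM2, and 6.45 for untreated and 6.56 for treated KMS11-labelled cells. It was thus higher by 0.84 on the treated OPM2 array than on its control. Of the 10 genes, 7 exceeded it in untreated OPM2 and 0 after treatment, and 6 in untreated KMS11-labelled cells and 3 after treatment. None was above it on all 4 arrays, and DUSP4 and SPRY4 were above it on none. Where the treated array read under background, a difference is given as at least the distance from the control value to the treated array's background.

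After 48 h of KPT-9274, most of these genes read lower on both lines' arrays. Of the 10, 8 were lower in OPM2 and in the KMS11-labelled arrays alike, as 27.9% of all tested genes were. SPRY2 read slightly higher in both, as 34.9% did, and SPRY4 differed in sign between the lines. The 8 lower genes, all of them tested, include DUSP4, under background on every array. They also include DUSP5 and ETV4, under background on both KMS11-labelled arrays. SPRY4, with a mean signal among the lowest 25% of genes, was left out of the test, so 9 were tested. Their median difference, treated minus control, was -1.24 in OPM2 and -0.96 in the KMS11-labelled arrays on the log2 scale, beside 0.03 and 0.04 over the 16790 genes tested. Of the 9, 6 were at least 2-fold lower in OPM2, where 5.52% of all tested genes were, and 4 in the KMS11-labelled arrays, where 4.43% were. For 3 of the 9, DUSP6, SPRED1 and SPRED2, this held in both lines, as for 1.19% of all tested genes. With differences bounded against background, the counts were 2 in OPM2 (DUSP6 and SPRED1), 3 in the KMS11-labelled arrays (SPRED1, SPRED2 and ETV5, the last just at the threshold) and 1 in both (SPRED1), against 4.33%, 4.10% and 0.947% of tested genes. In bulk RNA, fewer cells carrying a transcript and less transcript per cell cannot be told apart.

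No gene passed limma's test of the treatment over both lines. Of the 9 tested genes 0 passed at an adjusted p below 0.05, as did 0.00% of the 16790, and the smallest adjusted p over all genes was 0.325. At an unadjusted p below 0.05, 6 of the 9 were lower (DUSP6, SPRY1, SPRED1, SPRED2, ETV4 and ETV5), as were 8.65% of tested genes. For the same 6, both treated arrays read under both control arrays, as for 11.8% of tested genes. With 2 arrays against 2, an exact two-sided permutation test cannot give a p below 0.333 for a single gene. The differences below are therefore values of these arrays, and the words higher and lower describe readings.

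**Figure D1:**
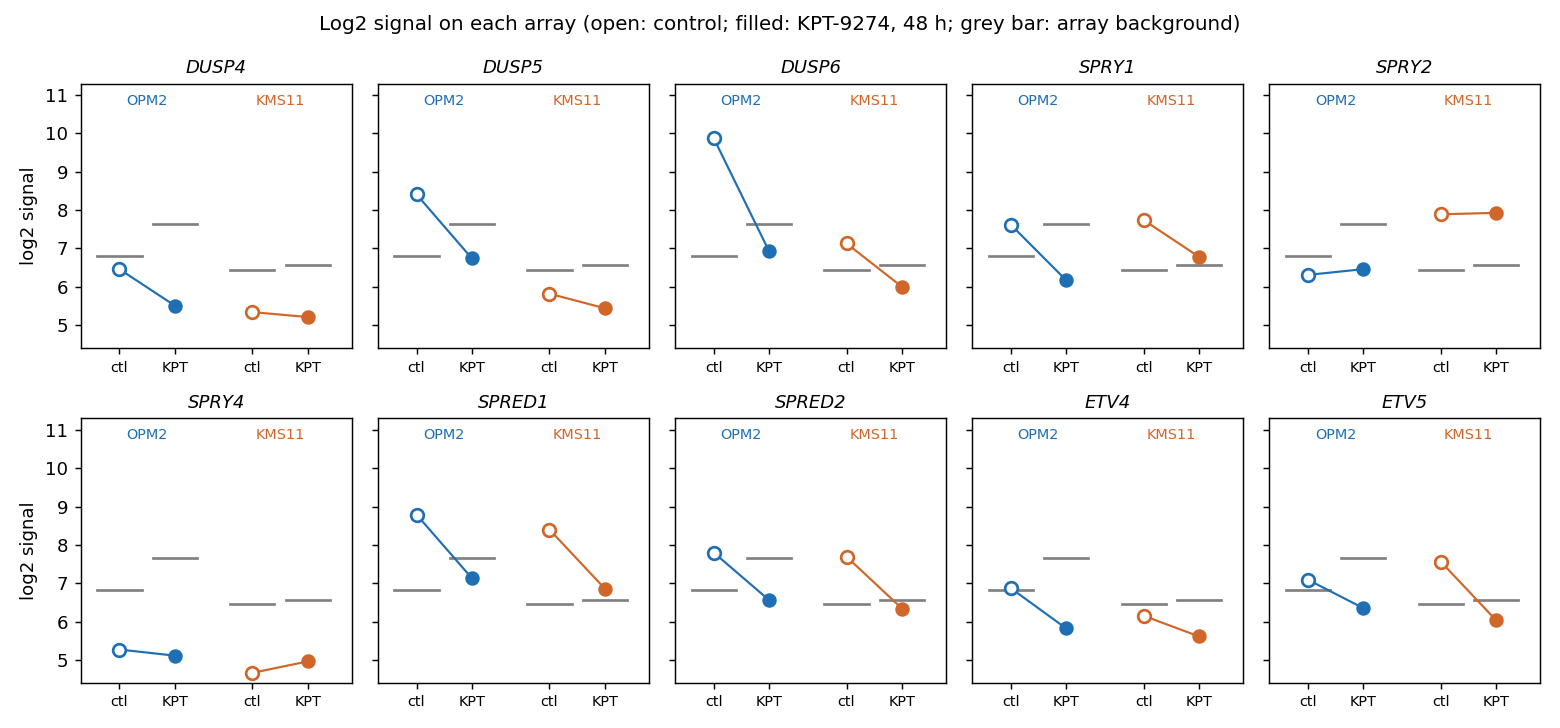
Log2 signal (vertical axis) of each of the 10 genes on the 4 arrays, OPM2 in blue and KMS11-labelled in orange, with open circles for control (ctl), filled circles for KPT-9274 at 48 h (KPT) and grey bars for each array's background. All 10 points of the treated OPM2 array lie under its background of 7.65, and DUSP6 shows the steepest line, from 9.88 to 6.93.

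DUSP6, the cytoplasmic ERK phosphatase, showed the widest difference of the 10 in OPM2. In the KMS11-labelled arrays SPRED1 (-1.54) and ETV5 (-1.53) did so nearly alike as deposited. Their order was reversed under quantile normalization and cyclic loess. In OPM2 DUSP6 read 9.88 without and 6.93 with the compound, and in the KMS11-labelled cells 7.13 without and 6.0 with it. Both controls were above background and both treated arrays under it, and the higher treated value lay 0.20 under the lower control. The difference was -2.95 in OPM2 and -1.13 in the KMS11-labelled arrays, and read against background DUSP6 was lower by at least 2.23 (4.69-fold) and at least 0.57 (1.49-fold). The limma estimate over both lines was -2.04 (95% interval -3.45 to -0.63, adjusted p = 0.342).

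The nuclear phosphatase DUSP5 was read above background on the OPM2 control array alone. Its signal was 8.41 on that array, 6.74 after treatment, 5.82 on the KMS11-labelled control array and 5.44 on the treated one. In OPM2 it was lower by at least 0.76, or by 1.67 as deposited, and no difference can be read on the KMS11-labelled arrays. Over both lines limma gave -1.02 (95% interval -2.09 to 0.04, adjusted p = 0.403).

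DUSP4, the other nuclear phosphatase, stayed under background on every array. It read 6.46 and 5.51 on the OPM2 control and treated arrays, and 5.34 and 5.21 on the KMS11-labelled ones. On the OPM2 control array 91.6% of olfactory receptor genes were dimmer than DUSP4, and on the treated one 41.8%. The limma estimate was -0.54 (95% interval -1.32 to 0.24, adjusted p = 0.488).

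The Sprouty genes differed among themselves. SPRY1 read 7.62 in untreated and 6.17 in treated OPM2, and 7.74 and 6.78 in the KMS11-labelled cells. Both treated arrays were lower than both controls, by 0.84 at the nearest. In the KMS11-labelled arrays, where both readings were above background, SPRY1 was lower by 0.96 (1.95-fold), while in OPM2 the control value itself lay just under the treated array's background, so that the difference of -1.45 as deposited cannot be bounded. The limma estimate for SPRY1 was -1.21 (95% interval -1.81 to -0.60, adjusted p = 0.325).

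SPRY2, a close relative with the same kind of action, read nearly alike with and without the compound. Its values were 6.31 and 6.46 on the OPM2 arrays, both under background, and 7.89 and 7.93 on the KMS11-labelled arrays, both above. The limma estimate of the treatment, from the values as deposited, was 0.09 (95% interval -0.41 to 0.60, adjusted p = 0.815). It rests in part on the OPM2 readings under background, which could not show a difference, so the interval sets no limit for OPM2. The OPM2 difference of 0.15 was 0.00 under quantile normalization and median centring and 0.19 after cyclic loess. SPRY2 was thus the 1 gene of the 10 with a clear signal on a treated array and no lower reading there.

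SPRY4 gave no readable signal on any array. It read 5.27 and 5.11 in OPM2 and 4.66 and 4.96 on the KMS11-labelled arrays, and at most 51.5% of olfactory receptor genes were dimmer. Nothing can be said from these arrays on whether its transcript differed.

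The SPRED genes read lower to a similar extent in both lines as deposited. Their treated OPM2 readings were under background, so the extent in OPM2 is known only as a lower bound. SPRED1, which brings neurofibromin to RAS, read 8.79 in untreated and 7.13 in treated OPM2, and 8.40 and 6.86 in the KMS11-labelled cells. The groups did not overlap, with a gap of 1.27 between the lower control and the higher treated value. SPRED1 was lower by at least 1.14 (2.21-fold) in OPM2, or by 1.66 as deposited, and by 1.54 (2.91-fold) in the KMS11-labelled arrays, where both readings were above background. The limma estimate of -1.60 (95% interval -2.10 to -1.10) had an adjusted p of 0.325, shared by other genes as the smallest in the fit.

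SPRED2, its paralog, read 7.80 and 6.56 on the OPM2 arrays and 7.69 and 6.34 on the KMS11-labelled arrays. Again the treated values lay under the controls, with a gap of 1.13. It was lower by at least 0.15 in OPM2, or by 1.24 as deposited, and by at least 1.13 (2.19-fold) in the KMS11-labelled arrays. The limma estimate was -1.29 (95% interval -1.80 to -0.79, adjusted p = 0.325).

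The PEA3 factors also read lower on both lines' treated arrays. ETV5 read 7.09 in untreated and 6.35 in treated OPM2, and 7.56 and 6.03 in the KMS11-labelled cells. Both controls were above background and both treated arrays under it. In the KMS11-labelled arrays ETV5 was lower by at least 1.0 (2.0-fold), and in OPM2 its difference of -0.74 cannot be bounded, since the control value lay under the treated array's background. The limma estimate was -1.13 (95% interval -1.89 to -0.38, adjusted p = 0.337).

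ETV4 was dimmer against background. It read 6.87 in untreated OPM2, just above background, 5.82 after treatment, and 6.15 and 5.61 in the KMS11-labelled cells. Only the OPM2 control reading was above background, and no bounded difference could be had in either line. As deposited the differences were -1.05 and -0.54, and limma gave -0.79 (95% interval -1.41 to -0.18, adjusted p = 0.354).

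**Figure D2:**
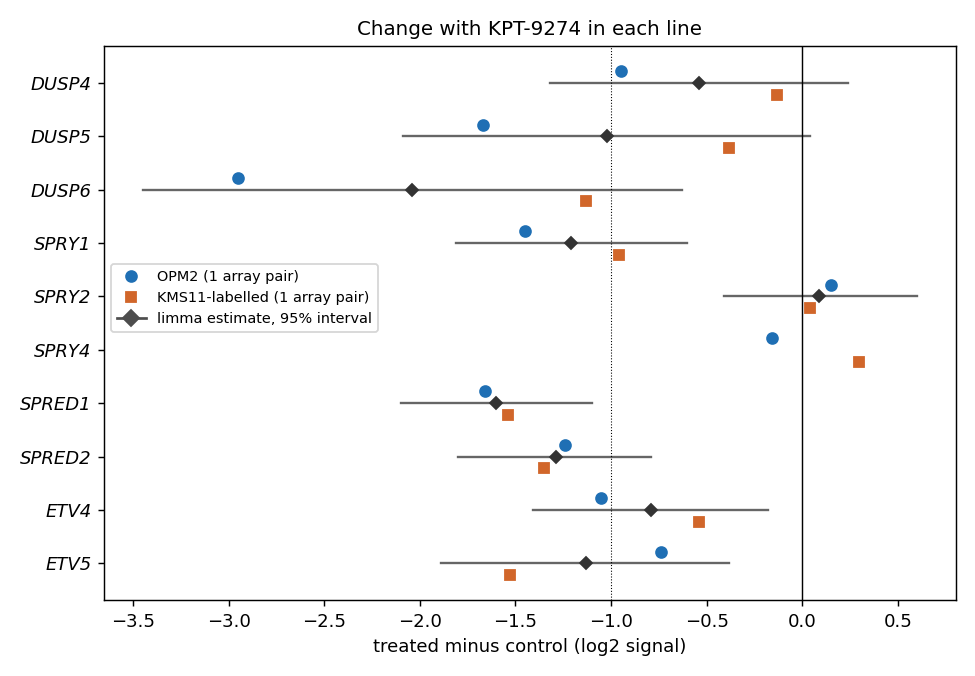
Treated minus control on the log2 signal scale (horizontal axis) for each gene, with OPM2 as blue circles, KMS11-labelled arrays as orange squares, and the limma estimate over both lines with its 95% interval as dark diamonds and bars; the dotted line marks a 2-fold lower reading. In these values as deposited, not bounded against background, SPRED1 and SPRED2 have their 2 lines close together and DUSP6 and DUSP5 have them far apart. SPRY4 was not tested.

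In the values as deposited, how far the lines agreed varied by gene. Of the 8 genes lower in both, 6 had the larger decrease in OPM2 and 2, SPRED2 and ETV5, in the KMS11-labelled arrays. The 6 include DUSP4, under background on every array, and ETV4, for which no difference could be bounded in either line. The OPM2 difference minus the KMS11-labelled one was -0.12 for SPRED1 and 0.11 for SPRED2, against -1.82 for DUSP6, -1.29 for DUSP5 and 0.79 for ETV5. With 1 array per condition nothing is left in the model to test this line-specific part against. The treated OPM2 readings of these genes were all under background. DUSP5 on the KMS11-labelled arrays and ETV5 in OPM2 gave no bounded difference. These values therefore do not settle how far the lines agreed. For DUSP6 and DUSP5 the KMS11-labelled controls, at 7.13 and 5.82, lay close to or under their background of 6.45.

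The olfactory receptor genes, by contrast, read higher after treatment, with a median difference of 0.49 in OPM2 and 0.14 in the KMS11-labelled arrays. Some plasma cell markers read lower beside the ERK feedback genes in OPM2. There 4 of 10 were at least 2-fold lower, IRF4 among them at 14.26 and 11.88, as were 5.52% of all tested genes. In the KMS11-labelled arrays 1 of 10 was, as were 4.43%. Others hardly differed in OPM2, such as PRDM1 (-0.18) and JCHAIN (-0.11), and SLAMF7, under background, had 0.30. The summed linear signal of the plasma cell list was 165000 in untreated and 133000 in treated OPM2, and 4400 and 3530 in the KMS11-labelled cells. Such sums mostly reflect the brightest genes, in OPM2 JCHAIN at 16.99 and 16.88, and in the KMS11-labelled cells XBP1 and JCHAIN. The part of either shift in the differences above was not tested.

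By limma's test over all arrays, 2 of the 9 tested genes read differently between the lines, as did 19.1% of the 16790 genes. The control and treated arrays of a line were its only replicates. These p-values therefore measure only the spread of these arrays. SPRY2 was higher in the KMS11-labelled arrays, with means of 7.91 against 6.38 in OPM2, a difference of at least 0.68 against background (1.52 as deposited, 95% interval 1.02 to 2.03, adjusted p = 0.0186). DUSP5 was higher in OPM2, with a limma difference of -1.94 as deposited (KMS11-labelled minus OPM2, 95% interval -3.01 to -0.88, adjusted p = 0.0439). Of its 4 readings only that of untreated OPM2 was above background, so the control arrays give a difference of at least 1.96 and the treated arrays none that can be read. The DUSP5 call was lost under median centring (adjusted p = 0.0592) and without the filter on dim genes (0.0671). DUSP6 differed by -1.84 (95% interval -3.25 to -0.43, adjusted p = 0.0838), and passed when the lowest 50% of genes were left out (0.0352). On the control arrays alone DUSP6 was lower by 2.75 in the KMS11-labelled cells, with both readings above background, while SPRED1, SPRED2 and SPRY1 differed by -0.39, -0.11 and 0.12.

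Other genes of the pathway were taken from 6 lists that hold 83 genes, of which 71 had a cluster of a single symbol and 62 were tested. By limma 0 of the 62 passed the treatment test, and 8 were lower and 2 higher at an unadjusted p below 0.05, where 8.65% and 3.97% of all tested genes were. The lists of receptors, adaptors and RAS regulators, kinase cascade and nuclear factors had medians of -0.02, -0.37, -0.19 and -0.14 in OPM2, and 0.09, -0.36, 0.03 and -0.12 in the KMS11-labelled arrays, each nearer to 0 than the medians of the feedback genes.

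Among the receptors, FGFR3 read 13.55 and 12.45 on the OPM2 arrays and 7.99 and 7.39 on the KMS11-labelled arrays. It was lower by 1.10 in OPM2 and by 0.60 in the KMS11-labelled arrays, and all 4 values were above background. IL6ST, the shared signalling chain of the IL-6 receptor family, was higher by 0.91 and 1.14. The stem cell factor receptor KIT read 10.88 and 12.66 on the KMS11-labelled arrays and under background in OPM2. FGFR2 was above background on the OPM2 control array alone, at 8.07. Of the 15 tested receptors 2 were lower and 4 higher in both lines, where 27.9% and 34.9% of all tested genes were. EPOR among the lower, and ERBB3 and CSF1R among the higher, were under background on all 4 arrays.

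Between receptor and RAS, SOS1, the exchange factor that loads RAS with GTP, read 15.18 and 12.84 on the KMS11-labelled arrays, a difference of -2.34, and 11.91 and 11.62 in OPM2, a difference of -0.29. Its paralog SOS2 had -1.06 in OPM2 and -0.48 in the KMS11-labelled arrays. The adaptor GRB2, which carries SOS to receptors, had -0.03 and 0.09, and the adaptor SHC1 0.22 and -0.24. NF1, the partner of the SPRED proteins, had -0.48 and -0.76, and was named after its values were seen. Of the 12 tested genes of that list 5 were lower in both lines and 1 was higher, where 27.9% and 34.9% of all tested genes were.

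In the kinase cascade 9 of 14 listed genes had a cluster of a single symbol, and 0 of these differed 2-fold in either line. The RAF kinase ARAF had -0.11 and 0.74, and HRAS, under background on both treated arrays, read 7.08 and 6.89 in OPM2 and 6.52 and 6.55 in the KMS11-labelled arrays. The other 5 genes of that list are not analysed here.

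Of 9 tested nuclear factors that act on such genes, 6 were lower and 1 higher in both lines, where 27.9% and 34.9% of all tested genes were. At least 2-fold lower were 1 in OPM2 and 0 in the KMS11-labelled arrays, against 5.52% and 4.43% of all tested genes. Of the serum response factor partners, ELK1 had differences of -0.23 and 0.13 and ELK3 -0.56 and -0.28. SRF itself had -0.88 and -0.27. ETS2, an ETS factor that ERK phosphorylates, read 8.87 and 7.26 on the OPM2 arrays, lower by at least 1.22, and 13.84 and 13.79 on the KMS11-labelled arrays. CIC, the repressor named above, is counted among the 6 lower, with differences of -0.01 and -0.12. It was under background on all 4 arrays, at 6.26 to 6.38, and was added after its values were seen.

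Genes outside the feedback group that ERK is known to induce were less readable on the control arrays. Of 18 with a cluster of a single symbol, 3 lay above background on each OPM2 array, 7 on the KMS11-labelled control array and 5 on the treated one. Of the 13 tested, 4 were lower and 4 higher in both lines, where 27.9% and 34.9% of all tested genes were. The 4 lower, MYC, LIF, TRIB1 and IER2, each had a reading above background, but only MYC had one in both lines. LIF and IER2 were under background on both OPM2 arrays, and TRIB1 on both KMS11-labelled arrays. The 4 higher, PHLDA1, IER3, CCND1 and EPHA2, had none. Medians were 0.01 and -0.19, genes under background included. MYC, a growth regulator whose transcript responds to ERK among other inputs, read 13.70 and 12.44 in OPM2 and 12.64 and 9.81 on the KMS11-labelled arrays, all far above background. The pseudokinase gene TRIB1 read 9.48 and 8.45 in OPM2 and was under background on the KMS11-labelled arrays. The early response gene IER2 read 8.12 and 7.08 on the KMS11-labelled arrays, and the cytokine LIF 7.52 and 5.83, lower by at least 0.96. EGR1, an early growth response factor, was barely above background on the KMS11-labelled control array at 6.59, and under it on the treated array at 5.59.

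**Figure D3:**
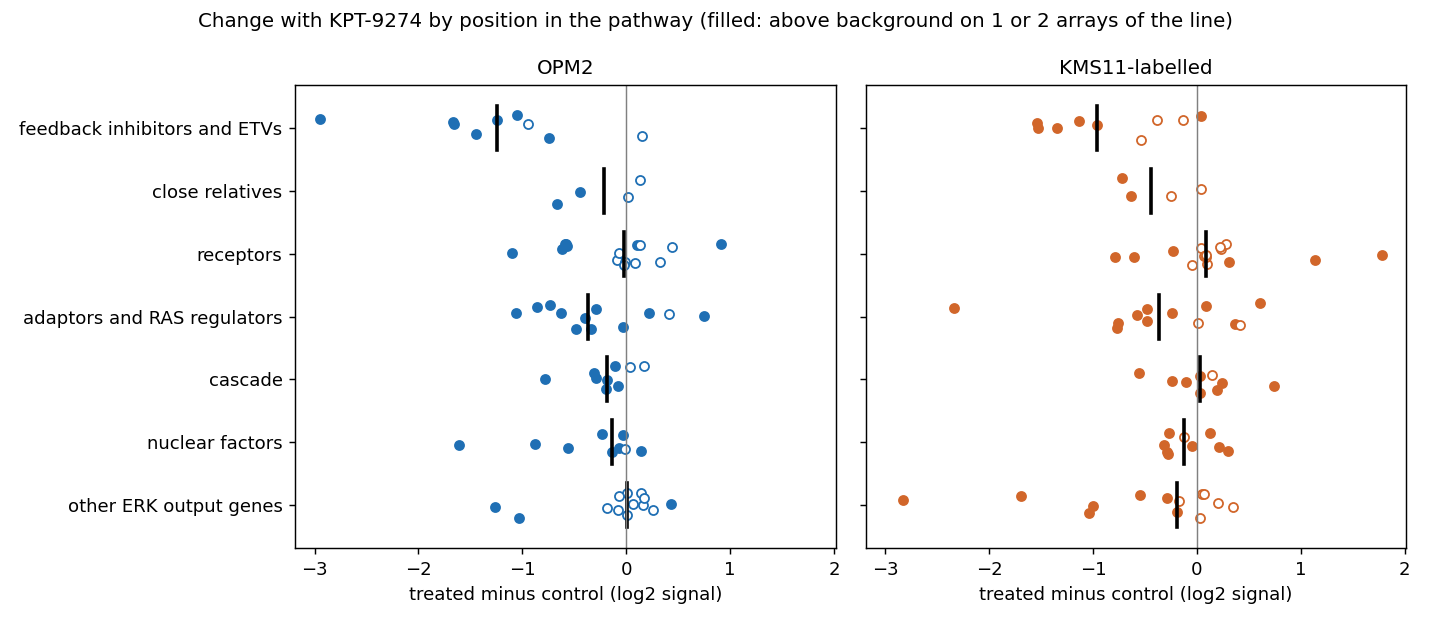
Treated minus control on the log2 signal scale (horizontal axis) for the tested genes of each list, in OPM2 and in the KMS11-labelled arrays, with 1 point per gene, black bars at list medians, and open points for genes under background on both arrays of that line. The feedback inhibitors and ETVs have medians of -1.24 and -0.96. The medians of the receptors and the cascade lie around 0, with many receptors under background.

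Close relatives of the 10 were few and mostly dim. DUSP7, another cytoplasmic ERK phosphatase, was above background on all 4 arrays, at 8.38 and 7.93 in OPM2 and 9.13 and 8.50 on the KMS11-labelled arrays, with differences of -0.45 and -0.63. ETV1, the third PEA3 factor, named after its values were seen, read 7.05 and 6.38 in OPM2 and 6.89 and 6.17 on the KMS11-labelled arrays, with both treated readings under background. SPRY3, SPRED3 and DUSP9 were under background on all 4 arrays. Neither DUSP7 (-0.54, adjusted p = 0.377) nor ETV1 (-0.69, adjusted p = 0.343) passed limma's test.

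For 3 of the genes, the profiles most like theirs were sought among 8908 genes above background on both control arrays, as the Euclidean distance between log2 values centred on each gene's mean over the 4 arrays. The nearest to DUSP6 were the cyclin E2 gene CCNE2 (distance 0.54), POP1 (0.58) and EEF2KMT (0.83). CCNE2 read 11.14 and 8.79 in OPM2 and 9.10 and 7.74 on the KMS11-labelled arrays. Nearest to SPRED1 were PTER (0.09), the histone methyltransferase gene KMT2D (0.14) and ZNF552 (0.19). Nearest to ETV5 were ACYP1 (0.21), the mismatch repair gene MLH3 (0.21) and ZNF655 (0.22). With 4 arrays, such closeness describes these readings alone.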

How the data were processed

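Total RNA from 4 cell samples was made into biotinylated sense-strand DNA and hybridised to whole-transcript arrays, per the labels' protocols. The submitters' processing notes name the Transcriptome Analysis Console, with which the authors made the deposited log2 signal values. How probes were summarized and arrays scaled, and on which build, is not given in the sources used here. A log2 scale was inferred from the range of values (2.49 to 19.74). Array medians were 5.75, 6.07, 5.68 and 5.76 (OPM2 control and treated, then KMS11-labelled), so no centring was seen. No depth applies, and the number of arrays limits precision.

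Of 65528 clusters 22755 had 1 gene symbol, 1389 several and 41384 none here. Symbols were updated with a GRCh38.p14 gene table: 20539 by gene number, 1916 by current symbol, 296 by an older symbol, and 4 kept. For 345 genes with several clusters the brightest was used. Genes with the lowest 25% of means (at most 5.40) were left out, which left 16790. In R 4.3.3 with limma 3.58.1 a model with line and agent was fitted (1 residual and 2.79 prior degrees of freedom), two-sided, with Benjamini-Hochberg adjustment at 0.05. It was tested on simulated data.

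The genes and lists were chosen with earlier results of these data known. Genes named beside the 10 were those of the 6 lists above background on at least 1 array that were among the first 4 of their list or differed at least 2-fold in a line; exceptions are stated. Alternatives were quantile normalization, median centring, cyclic loess, no filter or a 50% filter, the mean of clusters, no line block, a robust prior with a trend, and other backgrounds. Python 3.11.15 searched the sequences.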

Additional observations from a re-analysis of the deposited data

Results flagged for a closer look

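The lines had opposite signs of treated minus control, OPM2 before KMS11-labelled, for SPRY4 and 7 of the other named genes, a difference that was not tested with 1 array per condition. SPRY4 had -0.16 and 0.30, a difference of 0.46 between lines, with all readings under background. FGFR2 differed by 0.69, GRB2 by 0.12, SHC1 by -0.46, HRAS by 0.22, ARAF by 0.85, EGR1 by -1.16 and ELK1 by 0.36 (KMS11-labelled change minus OPM2 change). FGFR2 was under background on both KMS11-labelled arrays and EGR1 on both OPM2 arrays, HRAS was so on both treated arrays, and the EGR1 difference in the KMS11-labelled arrays, bounded against background, was -0.03.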

How the results depend on the processing

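No gene passed limma's treatment test (0 genes) under any of the 8 alternatives of scaling, filter, clusters, prior and line block. The direction of the treatment estimate was kept for each of the 9 tested genes wherever the gene was tested, and within each line the 8 genes lower in both stayed so under quantile normalization, median centring and cyclic loess. Median centring moved the median of all tested genes in OPM2 from 0.03 to -0.12. The count of genes that differed between lines stayed within 1.5 times of 3199. The counts of genes at least 2-fold lower against background rested on few genes near the threshold: under quantile normalization they were 1 in OPM2, 1 in the KMS11-labelled arrays and 0 in both lines, where values as deposited gave 2, 3 and 1. Without the bound against background, a choice made after seeing the data, they were 6 in OPM2 and 3 in both lines. Genes above background also moved with its definition. At the 99th percentile of olfactory receptor genes 3 exceeded it in untreated OPM2 and 1 in treated KMS11-labelled cells, and 1 in the latter by keratin-associated protein genes. At the 90th percentile 1 exceeded it in treated OPM2. Leaving out the pseudogenes among the olfactory receptor genes, an alternative added after seeing the data, kept the counts at 7 and 0 in untreated and treated OPM2 and 6 and 3 in the KMS11-labelled cells. Dim signal on the treated OPM2 array limits every OPM2 difference. The main fit pairs control and treated arrays by line, since the line is its block, and the labels give no other pairing.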
